A study of Homo sapiens with 6 samples.

Results

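Semaphorins, plexins and neuropilins were examined in MOLM-13 cells treated with the compound DB2115, with members taken as every protein-coding gene of the count table named SEMA3 to SEMA7, PLXNA to PLXND, NRP1 or NRP2. The rule found 31 genes among 58381 gene identifiers: 20 semaphorins, 9 plexins and 2 neuropilins. MOLM-13 is an established human acute myeloid leukaemia line with an MLL-AF9 fusion gene and a FLT3 internal tandem duplication. One group was kept for 20 h in 5 µM DB2115 and the other for the same time in vehicle, 0.001% DMSO. Both groups were the same unmodified line, grown in RPMI medium with 10% serum, so every value describes 1 cell line at 1 dose and 1 time. PU.1, an ETS-family factor and the product of SPI1, stands in the title of the series, and the comparison asks how transcription in this line responded to the compound. The family was proposed with results of the same contrast known, so the values of its members are given as a description and none of them is offered as a test of the family.

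Semaphorins are a family of extracellular signalling proteins that share a sema domain. Class 3 members are secreted, classes 4 to 6 span the membrane, and the class 7 member is held by a lipid anchor. Plexins are their receptors and carry a GTPase-activating domain inside the cell that acts on small Ras-family GTPases, whereas neuropilins have no enzymatic domain of their own and act as co-receptors that bind most class 3 semaphorins and also VEGF. The system was first known from axon guidance and also acts in blood vessels and in the migration and activation of immune and myeloid cells.

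The labels list 3 libraries per group, but in the count table the third column of each group was nearly the sum of the other two and was left out as pooled. Raw counts of 2 libraries per group, lettered A and B, were therefore used, with totals from 36547900 to 42446253. Levels are given as CPM, counts scaled to a common library size, with library composition corrected by the TMM method, and 3 counts in 1 library corresponded to 0.0719 to 0.0859 CPM. The labels do not tie these libraries to separate cultures, so the spread between them, and every p-value built on it, may be technical. A gene was called when edgeR's quasi-likelihood test gave a Benjamini-Hochberg adjusted p under 0.05 over the 17219 genes that passed a filter on low counts. All 7 myeloid leukaemia markers examined (CD33, PTPRC, FLT3, SPI1, HOXA9, MEIS1 and MPO) were above 1 CPM in each group, and their summed level was 1017 to 1044 CPM in vehicle and 840.4 to 903 CPM in DB2115. That sum held markers that went opposite ways: the mean level of FLT3 was 434 CPM in vehicle and 138 CPM in DB2115 and that of PTPRC 205 and 33.5 CPM, whereas that of MPO was 52.9 and 288 CPM. The summed level of 18 markers of neurons, endothelium, fibroblasts, epithelium, T cells, B cells and erythroid cells was 9.52 to 16.8 CPM in vehicle and 110.2 to 118 CPM in DB2115. Most of that sum was KRT8, an epithelial keratin, with a mean of 2.26 CPM in vehicle and 64.2 CPM in DB2115, and COL1A1, a fibroblast collagen, with 5.58 and 38.5 CPM. The epithelial markers EPCAM (0.183 and 0.0483 CPM) and CDH1 (0.0794 and 0.109 CPM) and the fibroblast marker DCN (0.0243 and 0.0964 CPM) were near 0 in both groups. CDH5, CD3D and HBB were at 0 in both vehicle libraries. In DB2115 CDH5 was at 0.292 and 0.288 CPM, CD3D at 0.17 and 0.0958 CPM and HBB at 0.0243 and 0 CPM. The part of these markers in the results was not tested.

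Of the 31 members, 24 passed the filter, and 18 of these rose with DB2115 while 3 fell and 3 were not called. Across all tested genes 64.1% were called, 32.0% higher and 32.1% lower. In 22 of the 24 tested members the libraries of the groups did not overlap, where over all tested genes 41.0% were higher without overlap and 40.3% lower without overlap. At a change of at least 2-fold the family held 14 higher members and 1 lower member, where 17.3% and 9.79% of all tested genes were so called. The median log2 fold change of the tested members was 1.40, against 0.009 over all tested genes, whose quartiles were -0.49 and 0.66. PLXNA4 and SEMA3B, 2 of the 24, were below the filter's level of 0.251 CPM in both vehicle libraries and could enter the test only by being higher in DB2115. The median over the other 22 was 1.28. Because these are bulk libraries, a change in the share of cells that carry a transcript and a change in the amount of RNA per cell cannot be told apart.

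**Figure D1:**
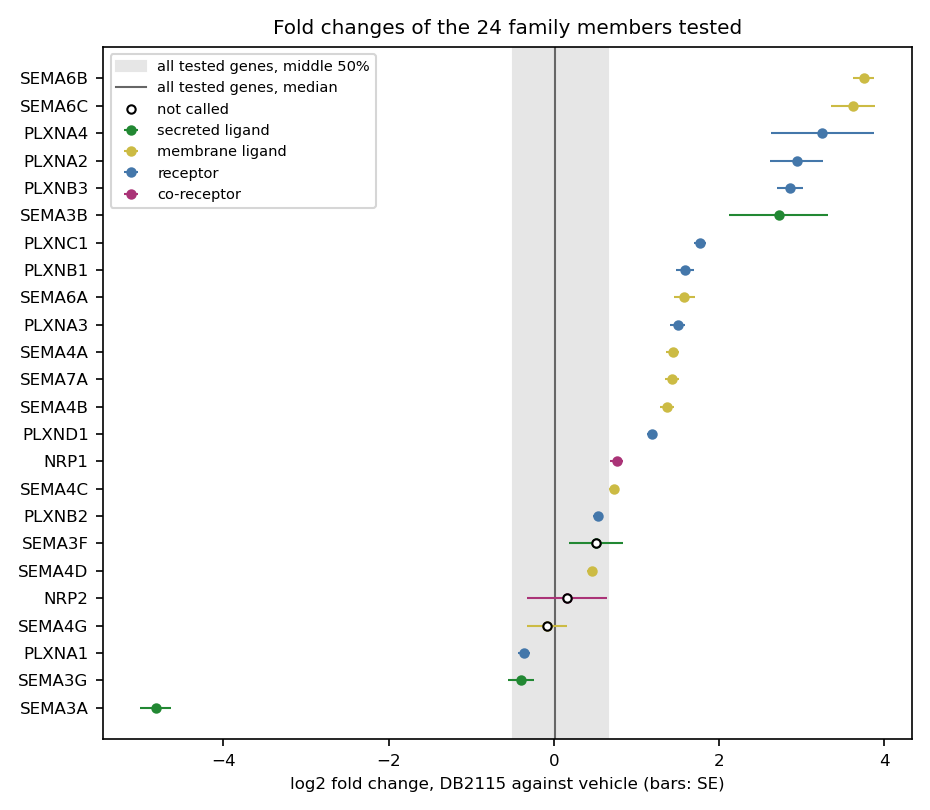
Log2 fold change (DB2115 minus vehicle) of the 24 tested members with bars of 1 SE, ordered by size and coloured by role, beside the median and quartiles of all tested genes; open circles were not called. The 3 members called lower are SEMA3A at -4.82, SEMA3G at -0.40 and PLXNA1 at -0.36, and the largest rise is SEMA6B at 3.75.

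Summed over members as CPM per kilobase of exon, a scale on which genes of different length can be compared, semaphorin transcripts went from 28.3 and 27.6 in the vehicle libraries to 59.1 and 57.8 in the DB2115 libraries. Plexin transcripts went from 67.3 and 70.1 to 126 and 128 on this scale. The ratio of the group means was 2.09 for semaphorins, 1.85 for plexins and 1.68 for neuropilins. Within the semaphorins the sums differed in direction: the membrane-bound classes together stood at 24.5 and 24.2 in vehicle and 56.8 and 56.1 in DB2115, and the secreted class 3 at 3.78 and 3.39 in vehicle and 2.25 and 1.61 in DB2115. Groups did not overlap in any of these sums. Within the class 3 sum, SEMA3A alone went from 1.47 and 1.32 to 0.0467 and 0.0511. The fall of that sum was therefore largely the fall of 1 gene. The 4 tested class 3 members had a median log2 fold change of 0.05, with 1 higher, 2 lower and 1 not called.

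**Figure D2:**
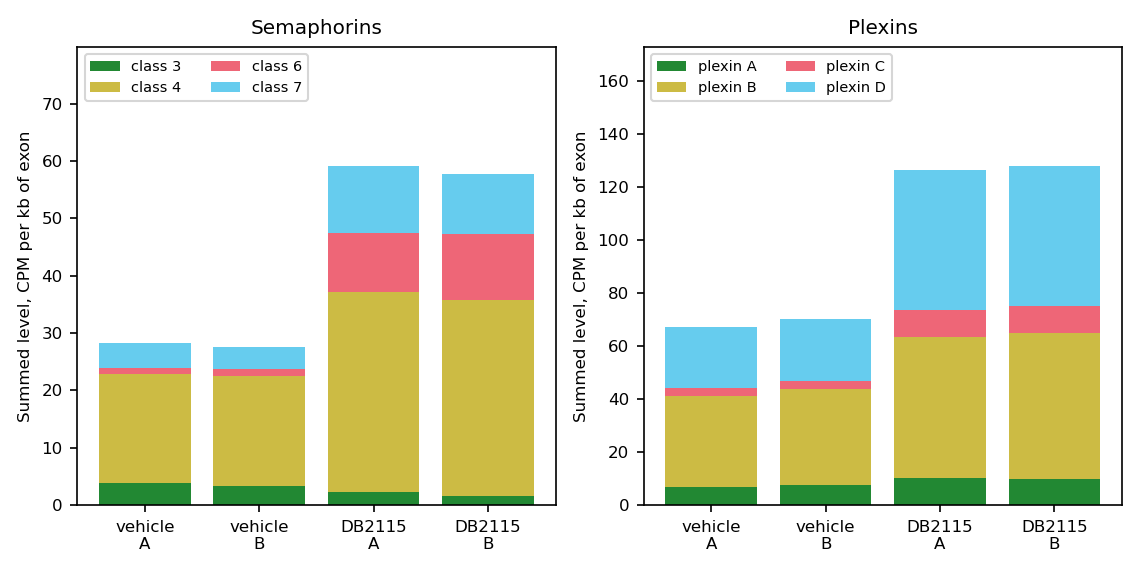
Summed CPM per kilobase of exon in each of the 4 libraries, as bars stacked by semaphorin class and by plexin group. Class 6 semaphorins go from 0.957 and 1.21 to 10.2 and 11.4 and class 3 from 3.78 and 3.39 to 2.25 and 1.61, and class 5, at most 0.0126 in any library, is not drawn.

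SEMA3A was the member with the largest fall. SEMA3A is the secreted semaphorin known for collapsing growth cones, and it signals through NRP1 with plexins of the A group. Its gene lies at chr7:83955777-84492724 (GRCh38, minus strand). Its level was 13.8 and 12.4 CPM in vehicle and 0.437 and 0.479 CPM in DB2115, from 481, 509, 18 and 20 counts. Both DB2115 libraries were far below both vehicle libraries and close to each other. The log2 fold change was -4.82 ± 0.19 (SE), a 28.3-fold lower level. Its share of the summed secreted semaphorins per kilobase was 38.9% in vehicle and 2.53% in DB2115.

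Among the other class 3 genes, 3 were nearly without counts. SEMA3C, SEMA3D and SEMA3E lie on chromosome 7 as well, and each had at most 4 counts in any library. SEMA3G, a secreted semaphorin known from endothelium, was at 10.6 and 9.11 CPM in vehicle and 8.75 and 6.13 CPM in DB2115. The groups did not overlap, but the lower vehicle library lay close to the higher DB2115 library. Its log2 fold change was -0.40 ± 0.16 and it was called lower, yet the call was lost under 7 of 13 alternatives. It was lost as well at the stricter threshold of 0.01, which is not among these 13. Without DB2115 library B the value was -0.17, without vehicle library A -0.28 and without vehicle library B -0.52, none of them called, whereas without DB2115 library A it was -0.68 and called. SEMA3F, which binds mainly NRP2, was at 0.801 and 1.07 CPM in vehicle and 1.51 and 1.17 CPM in DB2115. The DB2115 libraries were the higher ones by a margin within their own spread, and the log2 fold change of 0.51 had an interval of -0.21 to 1.22 and was not called. SEMA3B, a low-abundance member that rose, had 4 and 3 counts in vehicle and 31 and 21 in DB2115, a ratio of 6.81 with an exact counting interval (95%) of 3.08 to 17.8.

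Among the membrane-bound semaphorins, 8 of 9 tested members rose, 6 of them at least 2-fold, and none fell. Over all tested genes 32.0% were called higher and 17.3% were called at least 2-fold higher. Class 6, whose members bind plexins of the A group directly, held the 2 steepest rises among the tested members. SEMA6B, at chr19:4542593-4559808 (minus strand), was at 2.52 and 3.19 CPM in vehicle and 36.2 and 41.4 CPM in DB2115. Both DB2115 libraries were far above both vehicle libraries. The log2 fold change was 3.75 ± 0.13, 13.5-fold, and SEMA6B went from 2.32% to 15% of the summed semaphorin level per kilobase. SEMA6C had 0.315 and 0.56 CPM in vehicle and 5.44 and 5.54 CPM in DB2115, a log2 fold change of 3.62 ± 0.27. Its vehicle libraries were low and uneven, with 11 and 23 counts, and its DB2115 libraries nearly equal. SEMA6A was at 3.61 and 4.21 CPM in vehicle and 11.4 and 12 CPM in DB2115, 2.98-fold higher with no overlap. SEMA6D was not tested, with 1 count in each vehicle library and 5 and 4 in DB2115.

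In class 4, which includes semaphorins of lymphocytes and myeloid cells, 4 of 5 tested members rose. SEMA4A, known from T-cell priming by antigen-presenting cells, was at 15.8 and 15.4 CPM in vehicle and 41.8 and 42.7 CPM in DB2115, 2.71-fold higher. SEMA4B was at 13.2 and 12.7 CPM in vehicle and 32.9 and 34.2 CPM in DB2115, 2.59-fold higher. In both genes the libraries of a group lay close together and the groups were well apart. SEMA4C, a ligand of PLXNB2, was at 67.9 and 68.1 CPM in vehicle and 116 and 109 CPM in DB2115, 1.66-fold higher. Per kilobase it was the most abundant semaphorin in both groups, at 11 in vehicle and 18.3 in DB2115. SEMA4D, the ligand of PLXNB1 also called CD100, was at 49.6 and 48.3 CPM in vehicle and 67.0 and 68.0 CPM in DB2115, 1.38-fold higher and the smallest rise among the class 4 members called. SEMA4G, at 2.20 and 2.95 CPM in vehicle and 2.14 and 2.76 CPM in DB2115, overlapped between groups, and its log2 fold change of -0.08 had an interval of -0.60 to 0.45. SEMA4F had 0 and 1 counts in vehicle and 10 and 6 in DB2115 and was not tested, with a count ratio of 14.7 (exact counting interval 2.28 to 615).

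SEMA7A, the lipid-anchored semaphorin that binds PLXNC1 and integrins, was at 16.6 and 14.9 CPM in vehicle and 44.7 and 40.0 CPM in DB2115. Every DB2115 library exceeded every vehicle library, and the log2 fold change was 1.43 ± 0.09, 2.70-fold. SEMA5A and SEMA5B, the class 5 members, had at most 3 counts in any library and were not tested.

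All 9 plexins passed the filter, and 8 of them rose, 7 at least 2-fold, where 32.0% and 17.3% of all tested genes were so called. PLXNA4, which is among those that rose, could enter the test only by being higher in DB2115. PLXND1, the receptor of SEMA3E and SEMA4A, was one of the most abundant members, at 224 and 227 CPM in vehicle and 517 and 514 CPM in DB2115. The libraries of each group were within a few CPM of each other, and the log2 fold change was 1.19 ± 0.06, 2.28-fold. PLXNB2, a widely expressed receptor of class 4 semaphorins, was at 240.1 and 253 CPM in vehicle and 349.6 and 364 CPM in DB2115, 1.45-fold higher. The smaller rise of PLXNB2 went with a change in order: per kilobase it led the plexins in vehicle (34.0 against 23.2 for PLXND1), and PLXND1 led in DB2115 (52.9 against 49.2). In each group the libraries of these neighbours did not overlap.

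PLXNC1, the receptor of SEMA7A, lies at chr12:94148723-94307675 (plus strand) and was at 30.1 and 28.5 CPM in vehicle and 97.8 and 102 CPM in DB2115. The log2 fold change was 1.77 ± 0.07, 3.41-fold, so the ligand SEMA7A and its receptor were both higher in both DB2115 libraries. PLXNB1, the receptor of SEMA4D, was at 10.2 and 12.2 CPM in vehicle and 36.1 and 31.6 CPM in DB2115, 3.01-fold higher. PLXNB3, which binds SEMA5A, was at 1.43 and 1.46 CPM in vehicle and 10.4 and 10.6 CPM in DB2115, 7.27-fold higher. All 3 of these genes were higher in both DB2115 libraries than in either vehicle library, whereas SEMA5A itself had at most 3 counts in any library.

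Plexins of the A group, which pair with neuropilins for class 3 semaphorins and bind class 6 semaphorins directly, were divided. PLXNA1 was the only plexin that fell: it was at 55.3 and 57.7 CPM in vehicle and 43.8 and 44.4 CPM in DB2115, a log2 fold change of -0.36 ± 0.07. The groups did not overlap, and the fall was 1.28-fold. PLXNA3 was at 21.5 and 25.9 CPM in vehicle and 68.3 and 66.2 CPM in DB2115, 2.83-fold higher. PLXNA2 was at 0.372 and 0.438 CPM in vehicle and 3.62 and 2.68 CPM in DB2115, 7.69-fold higher from a low start. Together these genes changed the A group's order: PLXNA1 led in vehicle at 5.17 CPM per kilobase against 2.02 for PLXNA3, and PLXNA3 led in DB2115 at 5.75 against 4.03. PLXNA4 had 7 and 1 counts in vehicle and 38 and 48 in DB2115, a ratio of 9.86 with an exact counting interval of 4.79 to 23.6. Its log2 fold change of 3.25 ± 0.62 depended on 1 library, being 5.25 without vehicle library A and 2.35 without vehicle library B.

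NRP1, the co-receptor of SEMA3A and of VEGF, was at 20.2 and 19.4 CPM in vehicle and 32.7 and 34.1 CPM in DB2115. It rose 1.69-fold (log2 fold change 0.76 ± 0.08) with no overlap, so the co-receptor was higher in the libraries in which SEMA3A was lower. NRP2 was at 0.487 and 0.316 CPM in vehicle and 0.413 and 0.479 CPM in DB2115. Its groups overlapped, and the log2 fold change of 0.16 had an interval of -0.87 to 1.20.

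**Figure D3:**
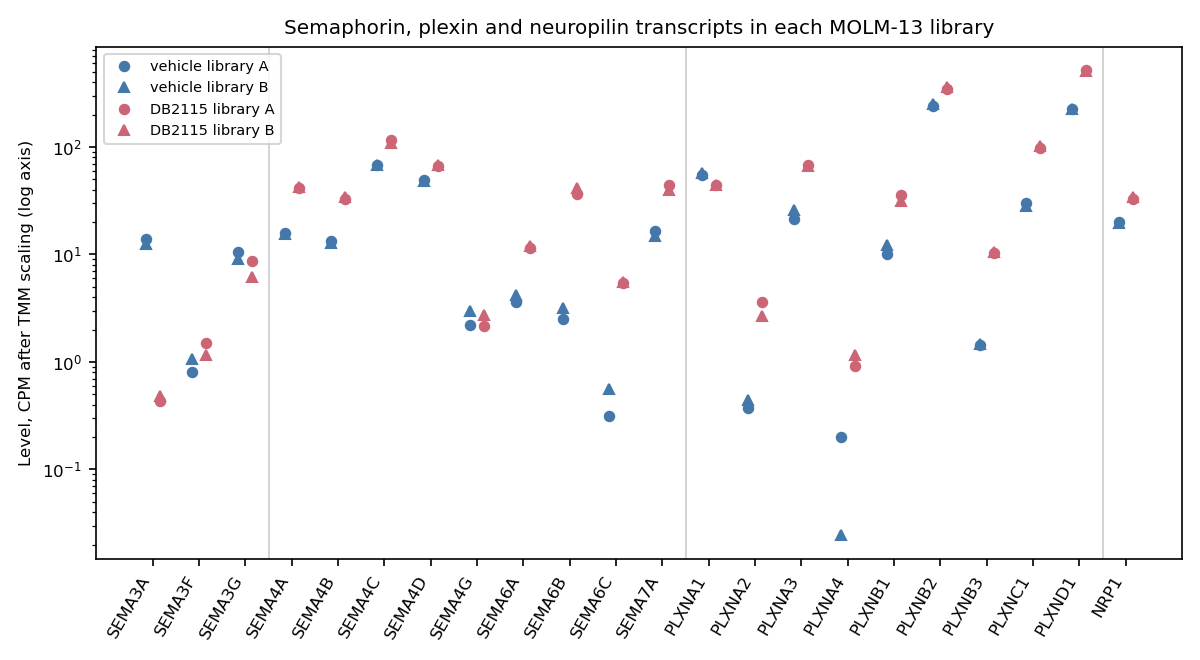
Level of each member with a group mean of at least 1 CPM in the 4 libraries, on a log axis in CPM, with secreted ligands, membrane ligands, plexins and NRP1 in order. SEMA3A drops from 13.8 and 12.4 to 0.437 and 0.479 CPM while SEMA6B climbs from 2.52 and 3.19 to 36.2 and 41.4 CPM.

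In order of level per kilobase, the vehicle cells had PLXNB2 (34.0), PLXND1 (23.2), SEMA4C (11), PLXNA1 (5.17), SEMA7A (4.14), SEMA4D (3.45), PLXNC1 (2.96) and SEMA4A (2.29) at the top, each apart from the next in both libraries. PLXNA3, SEMA3G and SEMA4B followed at 2.02, 1.97 and 1.85, and neighbours among these overlapped. In DB2115 the order was PLXND1 (52.9), PLXNB2 (49.2), SEMA4C (18.3), SEMA7A (11.1), PLXNC1 (10.1), SEMA6B (8.79), SEMA4A (6.19) and PLXNA3 (5.75), again without overlap between neighbours. SEMA6B moved from rank 15 of 31 to rank 6, PLXNA1 from 4 to 11 and SEMA3A from 13 to 23. The order depends on the length used. Dividing by the longest transcript in place of the union of exons put 17 of the 31 members at another rank in each group. In vehicle SEMA4D then stood at rank 4 and PLXNA1 at rank 5. In DB2115 SEMA4D stood at rank 7, SEMA6B at rank 8, PLXNA3 at rank 10 and SEMA3A at rank 24.

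A total of 22 members reached a mean of 1 CPM in at least 1 group. The other 9 were SEMA3B, NRP2, SEMA3C, SEMA3D, SEMA3E, SEMA4F, SEMA5A, SEMA5B and SEMA6D, none above 0.753 CPM in any library. Members were spread over 12 chromosomes, with 7 on chromosome 3 and 5 on chromosome 7. Exons of 10 members overlap those of another annotated gene. The sources used here do not give the strand setting of the counting, so reads of pairs on opposite strands may not have been told apart. PLXNB3 and SRPK3 lie on the same strand, where no strand setting separates reads of shared bases. Mean levels in vehicle were 46.5 CPM for SRPK3 and 1.45 CPM for PLXNB3, and 94.6 CPM for LAGE3 and 23.7 CPM for PLXNA3. PLXNA3 overlaps LAGE3 (log2 fold change -0.29), PLXNB3 overlaps SRPK3 (-0.64) and PLXNC1 overlaps CEP83 (-0.73), so in each of these pairs the neighbour was called lower while the plexin was called higher. SEMA4G overlaps MRPL43 (-0.49), and SEMA3F overlaps SEMA3F-AS1, which was called higher (1.02).

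Transcripts of the family were rich in G and C. The tested members had a median transcript GC content of 59.6%, against 49.2% over all tested genes, and 14 of the 24 were among the most GC-rich genes, those of 58.4% to 83.9% GC when all genes were divided into 5 equal groups. Fold changes rose with GC content across the table: the median log2 fold change of all genes was -0.24 among genes of 23.5% to 41.4% GC, where SEMA3A lay, and 0.30 among genes of 58.4% to 83.9% GC. With the trend over GC content and length removed, an alternative chosen after seeing the data, the median of the tested members was 1.13, SEMA3A stood at -4.58 and SEMA6B at 3.36. PLXNB2 went from 0.53 to 0.14 under the same removal and PLXNA1 from -0.36 to -0.74. The part of GC content in the members' values was not tested.

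**Figure D4:**
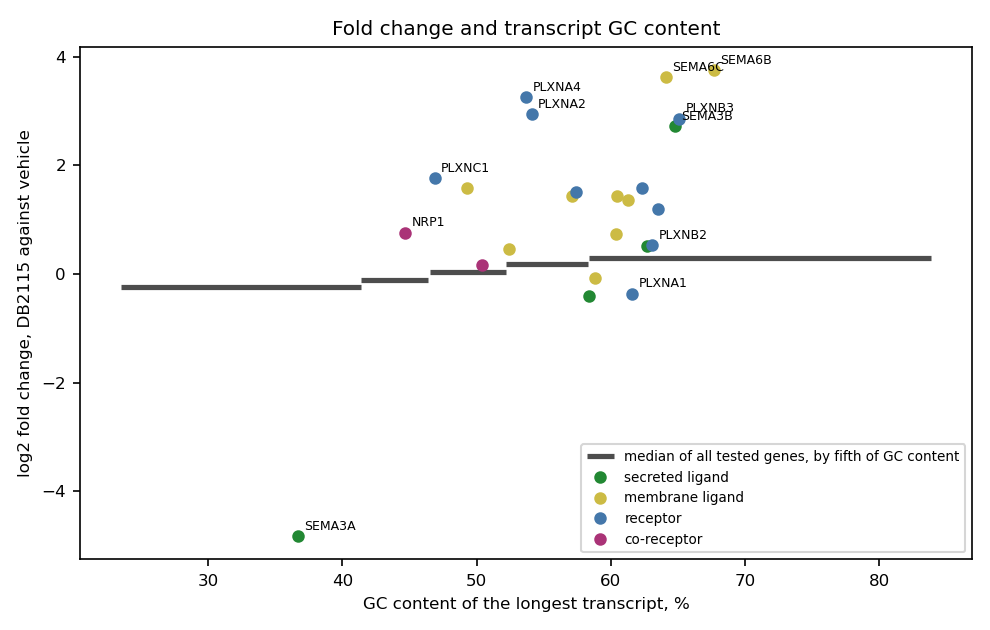
Log2 fold change of the 24 tested members against the GC content of their transcripts in percent, with horizontal bars at the median of all tested genes in each of 5 equal groups by GC content. The bars climb from -0.24 to 0.30, and SEMA3A, SEMA3G, SEMA4G and PLXNA1 are the members below the bar of their own group.

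Promoter sequence was read for the members because PU.1 is named in the series title and many members rose together. The window was the 250 bases before each RefSeq transcription start (GRCh38.p14), and 27 of the 31 members had an entry, in 48 windows; NRP1, SEMA3A, SEMA6A and SEMA6B had none. The letters searched on both strands were GAGGAAGT, a form of the PU.1 motif, and the shorter GGAAGT, which lies inside it. GAGGAAGT was found in 3 of the 48 family windows (6.25%) and in 2.17% of the 35116 windows of all genes. GGAAGT was found in 10 of the 48 (20.8%) and in 19.5% of all windows. The windows with GAGGAAGT belong to PLXNA2, PLXNC1 and SEMA4B, 3 of the 15 members with an entry that were called higher, and are printed here with the upstream bases of PLXND1, an abundant plexin that rose with no match in its window. Bases inside annotated exons were left out, apart from the match of PLXNC1 with its flanks. Capitals mark the match, which in SEMA4B reads on the opposite strand. The bases come from chr1:208244385-208244634 (minus strand) for PLXNA2, chr12:94262573-94262602 (plus strand, at a downstream start inside an annotated exon) for PLXNC1, chr15:90201080-90201318 (plus strand) for SEMA4B and chr3:129606819-129606926 (minus strand) for PLXND1. A match describes the letters alone.
PLXNA2: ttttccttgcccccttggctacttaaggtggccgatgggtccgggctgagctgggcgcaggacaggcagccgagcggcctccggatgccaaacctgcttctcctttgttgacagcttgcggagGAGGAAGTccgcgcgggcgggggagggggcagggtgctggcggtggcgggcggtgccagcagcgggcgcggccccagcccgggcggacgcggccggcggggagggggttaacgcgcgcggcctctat
PLXNC1: cggctcgccagGAGGAAGTggcatccagcc
SEMA4B: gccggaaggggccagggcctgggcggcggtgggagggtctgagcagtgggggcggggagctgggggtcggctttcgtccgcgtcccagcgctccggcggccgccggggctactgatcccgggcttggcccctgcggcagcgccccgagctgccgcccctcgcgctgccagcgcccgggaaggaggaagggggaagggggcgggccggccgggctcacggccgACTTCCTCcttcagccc
PLXND1: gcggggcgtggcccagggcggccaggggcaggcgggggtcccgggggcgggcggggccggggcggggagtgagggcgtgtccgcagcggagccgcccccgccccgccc

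These windows were GC-rich as well, with a median of 64.8% over the family's windows (34.8% to 88.8%) and 58.0% over all windows. The members with the letters rose 7.69-fold (PLXNA2), 3.41-fold (PLXNC1) and 2.59-fold (SEMA4B). Members called higher without them in any window ranged from SEMA4D, PLXNB2 and SEMA4C, at 1.38-, 1.45- and 1.66-fold, to SEMA6C, at 12.3-fold. PLXND1, at 2.28-fold, and PLXNB3, at 7.27-fold, lay between. Whether the letters had a part in the rises was not tested. SPI1 itself was at 188 and 178 CPM in vehicle and 209 and 170.1 CPM in DB2115, with overlapping groups.

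Genes that work with the family were taken from 6 lists of 72 genes, of which 56 were tested. Of these, 36 rose (64.3%), 11 fell (19.6%) and 9 were not called, with a median log2 fold change of 0.56. Over all tested genes 32.0% were called higher and 32.1% lower, with a median of 0.009. Some tested partners, MST1R and PGF among them, were below the filter's level of 0.251 CPM in both libraries of a group. Such genes could enter the test only by being higher in the other group, so the filter fixed their direction. Among 15 other semaphorin receptors and co-receptors, 10 were tested, 7 rose and 1 fell. L1CAM, an adhesion molecule that takes part in SEMA3A receptor complexes, was at 0.601 and 0.852 CPM in vehicle and 10.5 and 12.9 CPM in DB2115, 15.8-fold higher. TREM2, a myeloid receptor that forms a complex with PLXNA1, was at 2.12 and 1.58 CPM in vehicle and 26.9 and 25.6 CPM in DB2115, 14.3-fold higher. TREM2 therefore rose where PLXNA1 fell. PTPRC, the phosphatase CD45 reported to associate with SEMA4D, fell 6.12-fold, from 206 and 204 CPM to 35.0 and 32.0 CPM. For ITGB1, a subunit of the integrin that binds SEMA7A, the level was 127 and 127 CPM in vehicle and 125 and 128 CPM in DB2115, and it was not called.

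Of the 8 VEGF ligands and receptors that share neuropilins, 5 were tested, 4 rose and 1 fell. FLT1 and FLT4, VEGF receptors, rose 2.22-fold and 3.10-fold, from means of 37.1 and 9.74 CPM to 82.5 and 30.3 CPM. VEGFA, the ligand that binds NRP1, fell 1.73-fold, from 149 and 156 CPM to 80.3 and 96.3 CPM. Not all ligands of the list went with VEGFA: VEGFB rose 1.18-fold, from 19.4 and 16.7 CPM to 21.2 and 21.6 CPM. PGF, another neuropilin-binding ligand, was at 0.172 and 0.170 CPM in vehicle and 2.92 and 2.73 CPM in DB2115 and was called higher. PGF was below the filter's level in both vehicle libraries and could enter the test only by being higher in DB2115.

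Inside the cell, 10 of 14 GTPases at the plexin cytoplasmic domain were tested, and 5 rose and 3 fell. RRAS, 1 of the small Ras-family GTPases of this list, went from a mean of 1.81 to 8.46 CPM, 4.66-fold higher. RAC2, the blood-cell Rac, went from 245 to 429.7 CPM. MRAS went from 40.5 to 15.1 CPM, 2.69-fold lower, and RHOA from 602 to 535 CPM, 1.12-fold lower. The 8 exchange factors and GTPase-activating proteins were divided, with 5 higher and 3 lower. Over all tested genes 32.0% were called higher and 32.1% lower. The shares called lower among the GTPases and among these 8 genes were near that of all tested genes. FARP1 rose 2.07-fold and ARHGEF11, which couples B-group plexins to RHOA, 1.89-fold, whereas FARP2, a partner of PLXNA1, fell 2.26-fold and TIAM1 fell 1.88-fold.

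Of 20 cytosolic effectors and kinases 17 were tested, and 12 rose and 2 fell. MICAL2, an enzyme that oxidises actin, was at 42.1 and 43.3 CPM in vehicle and 319.7 and 339 CPM in DB2115, 7.72-fold higher and well apart. GIPC1, an adaptor that binds NRP1 and plexins, rose 3.72-fold from a mean of 16.5 to 61.2 CPM. MICAL1, the paralogue that binds plexins of the A group, fell 1.24-fold and the kinase ROCK1 fell 1.27-fold. Of 7 proteases that cut semaphorins 6 were tested, and 3 rose and 1 fell. FURIN, which processes class 3 semaphorins, rose 2.01-fold, from 101 and 98.0 CPM to 206 and 193 CPM, and MMP14, reported to release SEMA4D, rose 1.72-fold. ADAM10 was at 141 and 142 CPM in vehicle and 138 and 141 CPM in DB2115 and was not called.

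**Figure D5:**
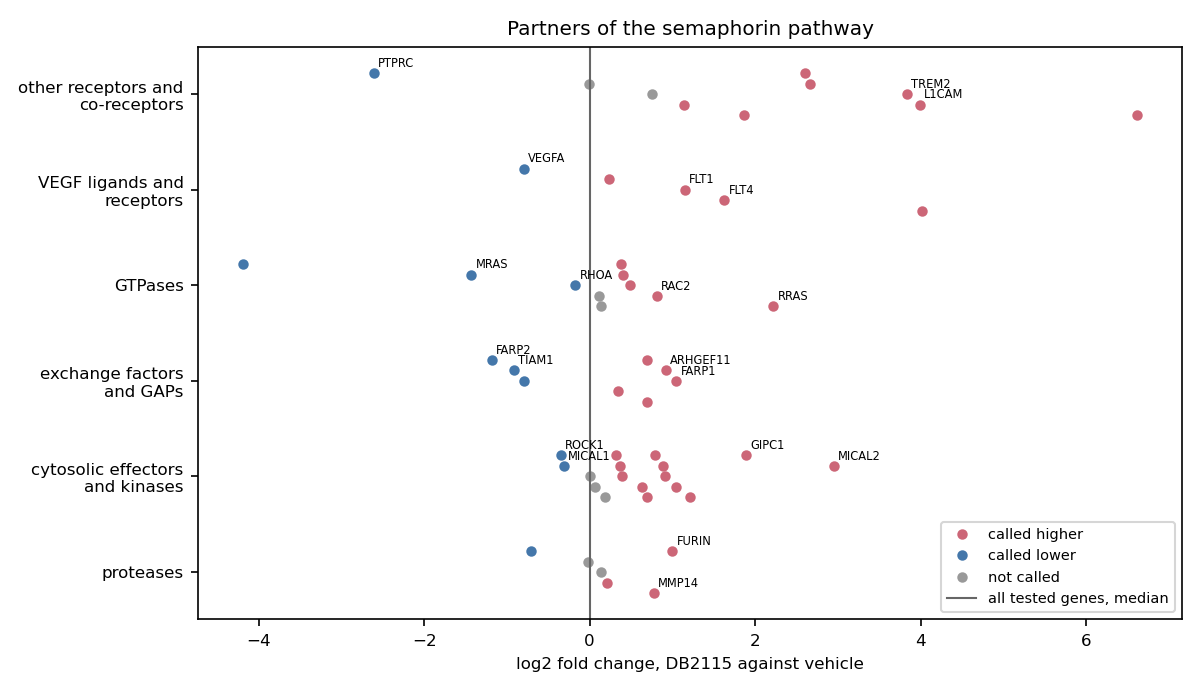
Log2 fold change of the tested partner genes in each of the 6 lists, coloured by call. The genes chosen by rule carry labels, among them L1CAM at 3.99, TREM2 at 3.84, MICAL2 at 2.95 and PTPRC at -2.61, and the unlabelled point at the upper end is MST1R at 6.62; the vertical line is the median of all tested genes, 0.009.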

How the data were processed

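The authors deposited 1 table of raw counts, not normalized, for 58381 Ensembl identifiers in 6 columns. FastQC, STAR, DESeq2 and hg38 appear in the submitters' processing notes. The sources used here give no versions, annotation, counting tool or strand setting. In each group the V column equalled the sum of columns A and B in 85.6% (vehicle) and 86.3% (DB2115) of genes, so V was left out and n = 2 libraries per group. Gene types, coordinates and exons came from GENCODE release 29, which held 58216 of the identifiers. Symbols came from a separate list of gene names, which held 57754 of them, with the GENCODE name used elsewhere.

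Counts were filtered with filterByExpr (minimum count 10, minimum total 15), scaled by TMM and tested with edgeR 4.0.16 (glmQLFit, glmQLFTest) in R 4.3.3 over 17219 genes, with treatment as the sole term and a threshold of 0.05 on Benjamini-Hochberg adjusted p. Standard errors were derived from each log2 fold change and its F statistic. Count ratios have exact (Clopper-Pearson) intervals, which cover counting error only. On simulated counts for these 17219 genes in 2 against 2 libraries, 62% of genes changed 1.5-fold were recovered, 88% at 2-fold, 90% at 4-fold and 94% at 8-fold, with 7 false calls among 174. The simulation changed a small set of genes and gave every gene the same relative spread between libraries, 6.35%. In the data 64.1% of tested genes were called, so these figures need not hold for this contrast.

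The members, partner lists and markers were chosen with earlier results of these data known. Values are given per library for members with a mean of at least 1 CPM in either group. Partners named are, per list and direction, the 2 called genes with the largest change and a mean of at least 5 CPM. ITGB1, ADAM10, VEGFB, MST1R, PGF and TYROBP were chosen after their values were seen. Some values of the marker and partner lists are not reported here. Alternatives were other scaling factors, DESeq2 1.42.0, limma-voom (limma 3.58.1), other filters, a stricter threshold, each library left out, a replicate block, all 6 columns and removal of the GC and length trend.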

Additional observations from a re-analysis of the deposited data

How the results depend on the processing

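The number of members called higher was between 14 and 19 over 14 alternatives (18 as reported), and of members called lower between 1 and 3 (3 as reported). The value of 1 came from requiring 1 CPM in 3 libraries, under which SEMA3A, above 1 CPM in the vehicle libraries only, was not tested and SEMA3G was not called. Leaving out each library in turn gave 18 higher in every case and 2 to 3 lower. Partner genes called higher ranged from 33 to 41 and lower from 8 to 11. SEMA4G changed sign, to 0.03 with upper-quartile factors, 0.03 with total counts, 0.02 with the stricter filter, 0.10 without DB2115 library A and 0.15 without vehicle library B, with a range of -0.28 to 0.15 over the libraries left out, and NRP2 changed sign to -0.13 without vehicle library B; neither was called in any of these. SEMA3G lost its call under 7 of 13 alternatives and also at the stricter threshold of 0.01, which is not among the 13. SEMA3F gained a call (0.50) with all 6 columns. The setting with all 6 columns uses the counts of columns A and B again through the V columns. Its calls therefore rest on repeated data, and the call of SEMA3F adds no evidence. With upper-quartile factors or total counts the median of all tested genes moved from 0.009 to 0.121 and that of the members to 1.51. A replicate block on the column letter left 18 members higher and 3 lower, and 37 partners higher and 11 lower. The letters do not match the numbers in the labels. Libraries with the same letter did not deviate together (r = 0.016 across 17219 genes, which are not independent). This value cannot decide whether the letters pair the libraries, because deviations from counting noise would be unrelated in either case. The causes were not tested. Members under about 1 CPM rest on few counts, and with 2 libraries per group small changes are imprecise.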

Other observations

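MST1R and TYROBP, partner genes that rose, were not taken by the naming rule. MST1R, a receptor of the MET family whose extracellular part holds a sema domain, had 2 counts over both vehicle libraries and 240 over both DB2115 libraries, a ratio of 110.1 with an exact counting interval of 30.1 to 914. TYROBP, the signalling adaptor of TREM2, was at 11.8 and 10.8 CPM in vehicle and 79.3 and 63.5 CPM in DB2115, 6.32-fold higher.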
